A study of Rattus norvegicus with 6 samples.

Results

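Collagen VI was measured in cultured mesenchymal stromal cells of GFP transgenic rats through every probe set of the array that the platform annotation names Col6a1, Col6a2 or Col6a3. There were 4 such probe sets among 15923, of which 12789 carried a single gene symbol. Col6a1 and Col6a3 had 1 probe set each (1371349_at and 1389966_at), and Col6a2 had 2 (1371369_at and the dimmer 1376162_at). The chains were chosen because an earlier reading of these arrays had shown them lower in blood cultures, so their levels and differences are given as a description, with no test.

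The 6 cultures came from 3 rats, named S4, S5 and S6, all carrying the GFP transgene, and each rat gave 1 culture grown from peripheral blood and 1 grown from bone marrow. Mononuclear cells from a density gradient were plated on plastic in the same serum-containing medium, and each culture's adherent passage 2 cells gave the RNA for 1 Affymetrix array of the type RAE230A. No agent or further allele separated the groups, and the strain, age and transgene promoter were not given in the sources used here. The groups are thus 3 blood and 3 marrow cultures, paired by rat, and each source of a rat is represented by 1 culture, and with so few arrays every value below has limited precision. In bulk RNA of this kind, fewer cells of a type and less RNA per cell cannot be told apart.

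Collagen VI is a secreted matrix protein built from 3 different chains, one encoded by each gene. The chains fold into a common helical monomer inside the cell, the monomers pair into dimers and tetramers before secretion, and the tetramers join end to end into beaded microfibrils around cells. The chain of Col6a3 is much longer than the others because of its many von Willebrand factor A domains, and its cut C-terminal piece is known as endotrophin. Inherited defects of any of these genes cause muscle disease of the Bethlem and Ullrich type, and interstitial fibroblasts are known as the main source of the protein in muscle.

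Promoter sequences are shown for the chains because Col6a1 and Col6a3 lie on different chromosomes and yet were both lower in blood cultures. RefSeq windows in the GRCr8 build, from 250 bases before to 50 bases after the start site, were held for 2 of 3 chains. The sequence of Col6a1 is the plus strand of chr20:11905440-11905689, the 250 bases before its start. That of Col6a3 is the minus strand of chr9:98887061-98887208, the 148 bases before its outermost annotated start. Both are written 5′ to 3′, with matches to the motifs searched in capitals.
Col6a1: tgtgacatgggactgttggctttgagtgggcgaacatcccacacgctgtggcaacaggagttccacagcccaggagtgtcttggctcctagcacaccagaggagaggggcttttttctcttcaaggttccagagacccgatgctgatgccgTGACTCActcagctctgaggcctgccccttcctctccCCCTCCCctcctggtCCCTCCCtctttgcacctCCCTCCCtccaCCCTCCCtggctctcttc
Col6a3: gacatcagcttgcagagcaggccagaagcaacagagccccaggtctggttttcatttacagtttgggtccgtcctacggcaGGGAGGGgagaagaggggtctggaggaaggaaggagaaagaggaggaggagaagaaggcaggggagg

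The windows of 300 bases were searched on both strands for 6 motifs, namely the TATA box as TATAAA, the CCAAT box by those letters, the GC box as GGGCGG, a pyrimidine element as CCCTCCC, the AP-1 site as TGANTCA and the AP-2 site as GCCNNNGGC. Col6a1 held CCCTCCC 4 times on its own strand, within the last 62 bases before the start, and TGACTCA once, from 99 to 93 bases before it. These matches did not overlap each other. A match to GCCNNNGGC lay just after the start of Col6a1, outside the printed stretch. Col6a3 held 1 match to the CCCTCCC motif, on the opposite strand, where it reads GGGAGGG, and no other match. Over 27457 promoter windows of the same length, CCCTCCC was found in 20.9% and 4 or more times in 0.768%. The AP-1 letters were found in 7.33%, those of AP-2 in 15.7%, TATAAA in 14.3%, CCAAT in 37.7% and GGGCGG in 34.9%. The printed Col6a1 stretch was 62.4% C and T, while the printed Col6a3 stretch was 70.3% A and G. The arrays measured RNA and not binding, so the matches are a description of the letters.

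On the arrays, the level of Col6a1, which encodes the alpha1 chain, was 11.32, 9.89 and 10.78 in the marrow cultures of rats S4, S5 and S6 and 8.57, 8.18 and 9.08 in their blood cultures (deposited signal, read as log2). Every blood culture lay below every marrow culture, with 0.81 log2 units between the nearest arrays. The marrow cultures spread over 1.43 units, with S4 highest and S5 lowest, and the blood culture of S5 was again the lowest. Blood minus marrow was -2.75 in S4, -1.71 in S5 and -1.70 in S6, a mean of -2.05 ± 0.60 (SD, n = 3 rats). That is a 4.15-fold higher signal in marrow cultures if the base of the deposited logarithm is 2.

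The level of Col6a2, which encodes the alpha2 chain, was 10.96, 10.01 and 10.74 in marrow and 8.50, 8.57 and 9.13 in blood cultures of S4, S5 and S6 on its brighter probe set. The groups again did not overlap, with a gap of 0.88 units, and the order of the rats in marrow was that of Col6a1. Its differences were -2.46, -1.44 and -1.61, with a mean of -1.84 ± 0.55 (SD, n = 3), or 3.57-fold.

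The dimmer probe set of Col6a2 gave 8.71, 8.15 and 8.41 in marrow and 7.37, 7.65 and 7.74 in blood cultures. It showed the same order of groups at a smaller size, with differences of -1.34, -0.50 and -0.67 and a mean of -0.84 ± 0.44 (SD, n = 3). The probe sets of this gene therefore disagreed on size by 1.00 ± 0.10 log2 units (SD, n = 3) and agreed on direction in each rat. The dimmer one exceeded 8.18, the median of all deposited values, on 2 arrays, and so did not pass the filter of 3 arrays above that median, whereas the other 3 probe sets passed. With no background level known near that median, its smaller difference cannot be read as a smaller change in RNA.

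The level of Col6a3, which encodes the long alpha3 chain, was 10.98, 10.63 and 10.57 in marrow and 8.72, 9.33 and 8.53 in blood cultures of S4, S5 and S6. The gap between the groups was 1.24 units, wider than for the other chains, and the marrow cultures lay within 0.41 units of each other. Its blood culture of S5 was the highest of the blood cultures, where that of Col6a1 was the lowest. The differences were -2.26, -1.30 and -2.04, with a mean of -1.87 ± 0.50 (SD, n = 3), or 3.65-fold.

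**Figure D1:**
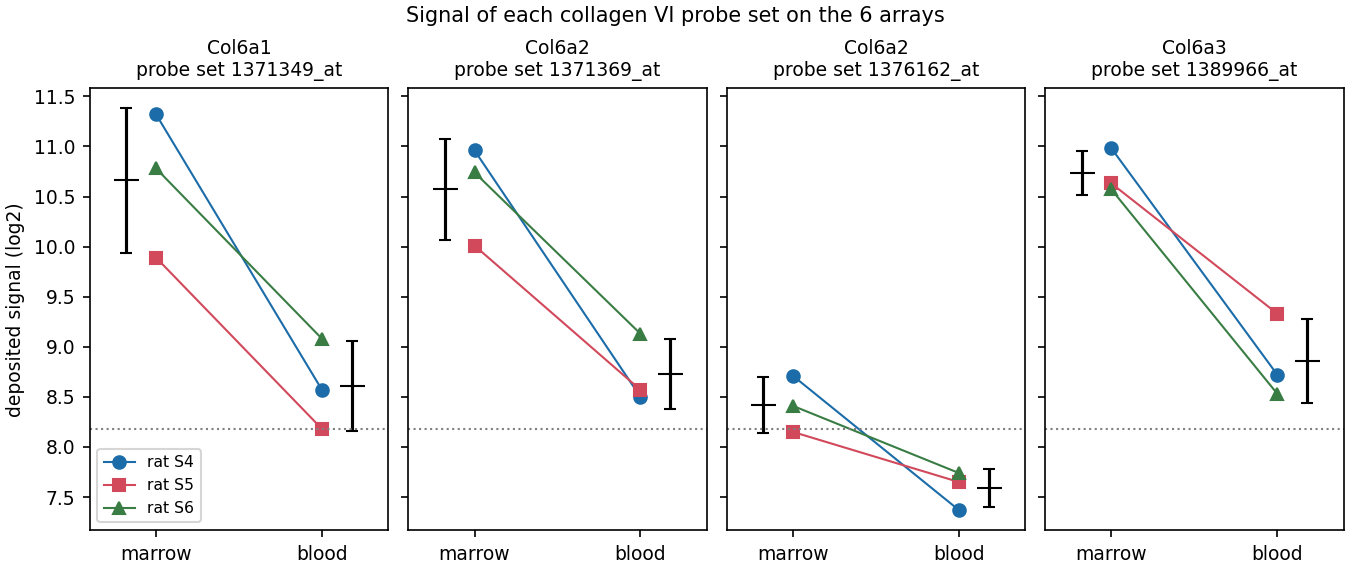
Deposited signal on a log2 scale (vertical axis) of the 4 collagen VI probe sets in marrow and blood cultures, with a line joining the cultures of each rat, black bars for the mean ± SD of each group (n = 3) and a dotted line at the median of all values, 8.18. In every panel the blood arrays lie below the marrow arrays, by a gap of 0.41 to 1.24 log2 units between the nearest arrays.

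All 4 probe sets had groups that did not overlap, with blood lower. The same order of groups was seen in 9.4% of the 15866 probe sets that are not controls, and since the chains were chosen on this contrast nothing is read from that comparison. Among 6097 genes represented by the brightest of their probe sets above the filter, the median difference was -0.01, and 90% of genes lay between -0.50 and 0.51. Counting each chain itself, 45 genes had a difference as low as that of Col6a1 or lower, 55 as low as that of Col6a2 and 53 as low as that of Col6a3. The standard errors of the limma fit with the rat as a term were 0.24, 0.22 and 0.21 for Col6a1, Col6a2 and Col6a3.

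The balance between chains was followed through their differences only, because signals of different probe sets have no common scale. Relative to Col6a1, Col6a2 fell short of the full difference by 0.29, 0.27 and 0.09 log2 units in S4, S5 and S6, a mean of 0.22 ± 0.11 (SD, n = 3). This had the same sign in every rat, but on the dimmer probe set of Col6a2 the value would be 1.22. Col6a3 relative to Col6a1 gave 0.49, 0.41 and -0.34, a mean of 0.19 ± 0.46 (SD, n = 3), and Col6a3 relative to Col6a2 gave 0.20, 0.14 and -0.43, a mean of -0.03 ± 0.35 (SD, n = 3). In S4 and S5 the alpha3 chain thus had the smallest difference of the chains, and in S6 the largest. Both means for Col6a3 were smaller than their spread between rats, and with 3 rats an unequal change of that order was not detectable.

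The rats differed more than the chains did. S4 had the widest difference for all 3 chains, between -2.75 and -2.26, while S5 lay between -1.71 and -1.30 and S6 between -2.04 and -1.61. In marrow cultures, Col6a1 and Col6a2 shared the order S4, S6, S5 from high to low, and their S5 arrays lay 0.77 and 0.56 below the group mean, against 0.10 below it for Col6a3. In blood cultures, S6 was highest for Col6a1 and Col6a2 and lowest for Col6a3.

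The other collagens did not move as a family. The 7 fibrillar collagen genes tested, which encode the chains of the thick load-bearing fibres, all had differences above 0, between 0.09 and 0.71 with a median of 0.29. None passed at an adjusted p of 0.05 in limma with Benjamini-Hochberg adjustment over all 8113 probe sets kept, and 2 had an unadjusted p under 0.05, both higher in blood cultures. For comparison here and in the lists below, 1147 of the 8113 probe sets had an unadjusted p under 0.05 in either direction. Col1a1, the main chain of collagen I, stood at 12.54 ± 0.20 in marrow and 13.01 ± 0.02 in blood cultures (SD, n = 3). The group means of Col1a1, Col1a2, Col3a1 and Col5a2, from 12.38 to 13.01, were near the top of the scale. The array's response to RNA is not known there, so their small differences cannot be read as small changes in RNA. Col5a1, a chain of the collagen V that seeds fibrils, differed by 0.05, 1.26 and 0.83 in S4, S5 and S6 (adjusted p = 0.269).

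In the network and basement membrane list, 1 of 7 tested genes rose, 2 fell and 4 did not pass. For comparison, 2.02% of all 6097 genes passed in either direction, 0.853% higher and 1.16% lower. Col18a1, whose C-terminal piece is endostatin, differed by -2.90, -2.73 and -2.20 in S4, S5 and S6 (limma, adjusted p = 0.00344). It stood at 9.84 ± 0.16 in marrow and 7.23 ± 0.53 in blood cultures, and differed by -2.96 on its other probe set. All blood arrays of Col18a1 lay below the median of all values, so it passed the filter through its marrow arrays alone. Col15a1, its closest relative among the collagens, differed by -3.79, -2.00 and -1.96 (adjusted p = 0.0386). Col4a5, a collagen IV chain, went the other way by 2.23, 1.93 and 2.31 (adjusted p = 0.00344), while Col4a1 and Col4a2, at 0.26 and 0.44, did not pass.

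Of the fibril-associated collagens 2 genes were tested and neither passed in limma, 1 of them having an unadjusted p under 0.05. Col14a1, which encodes a collagen that coats fibrils, differed by -4.25, -3.20 and -1.47 on its brightest probe set (adjusted p = 0.0552). A second kept probe set of Col14a1 gave -3.02, -1.79 and -1.49 and did pass (adjusted p = 0.0384), though not with the arrays brought to a common trimmed mean (adjusted p = 0.0906). Col12a1, which encodes its relative, differed by -0.68, 0.45 and -0.63 (adjusted p = 0.734). Of 16 other collagen genes tested, 4 had a difference below 0 (Col14a1, Col18a1, Col15a1 and Col12a1), and their median was 0.28. The genes Col6a4, Col6a5 and Col6a6, which encode further chains that can take the place of alpha3, had no probe set under those symbols.

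**Figure D2:**
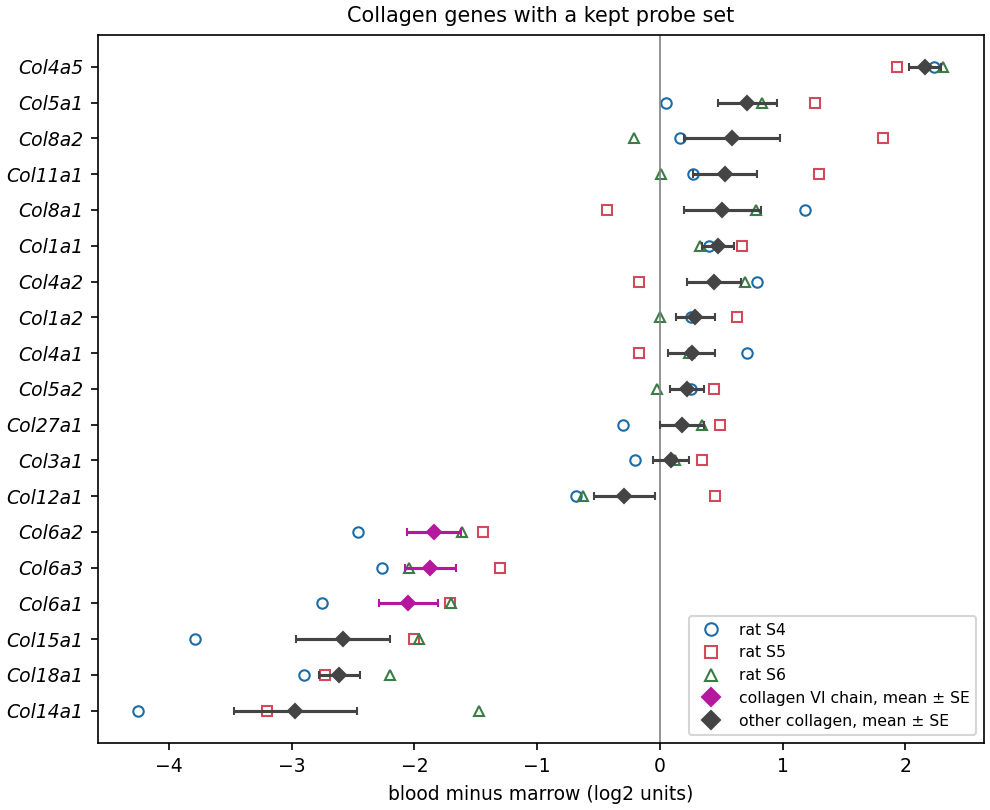
Blood minus marrow difference in log2 units (horizontal axis) of the 3 collagen VI chains and 16 other collagen genes, each by its brightest probe set that passed the filter; diamonds are means with the SE of the limma fit and open symbols are the 3 rats. The chains lie at -2.05 to -1.84, below 13 of the other collagens and above Col15a1, Col18a1 and Col14a1.

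Genes that fold and modify collagen chains in the endoplasmic reticulum showed differences near 0. None of 18 tested passed in limma, 1 had an unadjusted p under 0.05 in each direction, and the median was 0.01 with a range of -0.42 to 0.45. Serpinh1, the collagen chaperone HSP47, stood at 12.10 ± 0.01 in marrow and 12.14 ± 0.14 in blood cultures (SD, n = 3), a difference of 0.04 ± 0.12 (SE). Its dimmer probe set, below the filter, differed by 0.38. P4ha1, a prolyl hydroxylase subunit, differed by 0.51, 0.25 and 0.59 in S4, S5 and S6 (adjusted p = 0.202). Colgalt1, which adds galactose to hydroxylysine and acts on collagen VI among others, differed by -0.51, -0.16 and -0.36 (adjusted p = 0.317), and Plod1, a lysyl hydroxylase, by -0.64, 0.01 and -0.63 (adjusted p = 0.364).

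None of 6 tested microfibril partners passed in limma; an unadjusted p under 0.05 was seen once in each direction, with a median of 0.06. Bgn, the small proteoglycan biglycan that binds collagen VI, stood at 12.74 ± 0.09 in marrow and 12.79 ± 0.03 in blood cultures, and Fn1, fibronectin, at 12.99 ± 0.09 and 12.94 ± 0.11 (SD, n = 3). Both were near the top of the scale, where the array's response to RNA is not known. Dcn, the related proteoglycan decorin, differed by -2.02 in S4 and -2.19 in S6 but by 0.06 in S5, and its mean of -1.38 ± 0.45 (SE) did not pass (adjusted p = 0.251). Without rat S5, Dcn did pass, on the remaining 2 rats. Fbn1, fibrillin-1, differed by 0.35 ± 0.13 (adjusted p = 0.312) and Mfap5, a microfibril protein, by -0.42, 2.36 and -0.42 (adjusted p = 0.808).

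Of the receptors, 6 were tested and none passed in limma; 2 were higher and 2 lower at an unadjusted p under 0.05, and the median was 0.30. Antxr2, the capillary morphogenesis protein that takes collagen VI into cells, differed by -0.58, -0.78 and -0.26 in S4, S5 and S6, between 11.13 ± 0.16 in marrow and 10.59 ± 0.15 in blood cultures (adjusted p = 0.176). Its groups did not overlap. Itga1, the alpha1 integrin subunit of a collagen receptor, differed by 0.98, 0.08 and 1.28 (adjusted p = 0.238), and its partner Itgb1 by 0.07 ± 0.13 (adjusted p = 0.913). Ddr2, a collagen-binding receptor kinase, differed by -0.33 ± 0.12 (adjusted p = 0.294). Cspg4, the NG2 proteoglycan that binds the alpha2 chain, lay below the level for testing, at 7.26, 6.56 and 7.18 in marrow and 6.18, 6.38 and 6.36 in blood cultures. Antxr1, the receptor of endotrophin in several reports, is named by no probe set here.

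Genes of matrix processing and turnover were called in both directions. Of 12 tested, 1 rose, 3 fell and 8 did not pass, with a median of -0.40. Of all 6097 genes, 0.853% passed as higher and 1.16% as lower. Mmp13, a collagenase, differed by -5.44, -3.81 and -4.35 in S4, S5 and S6 (adjusted p = 0.00373), and Mmp3, stromelysin, by -5.46, -2.87 and -3.28 (adjusted p = 0.0251). Fap, a surface serine protease of activated fibroblasts, differed by -4.22, -1.73 and -3.51 (adjusted p = 0.0384). Timp3, a matrix-bound protease inhibitor, was higher by 4.51, 2.32 and 5.58 (adjusted p = 0.0361). All marrow arrays of Timp3 lay below the median of all values, so it passed the filter through its blood arrays alone.

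None of 11 tested TGF-beta pathway genes passed in limma. TGF-beta is known to raise collagen VI in fibroblasts, and its part in the chain differences was not tested. At an unadjusted p under 0.05, 2 were higher and 2 lower, and the median was 0.08 with a range of -2.42 to 0.81. Without rat S5, Tgfbi and Tgfb2 did pass, on the remaining 2 rats. Smad3, a signal carrier of the pathway, differed by -0.37, -0.97 and -0.41 in S4, S5 and S6 (adjusted p = 0.189), the ligand gene Tgfb2 by 1.09, 0.11 and 1.22 (adjusted p = 0.215) and Skil, a pathway inhibitor, by 0.38 ± 0.12 (adjusted p = 0.24).

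Over all these lists, 69 of 116 genes were tested, and 2 rose and 5 fell in blood cultures, with a median difference of 0.04. This count rests on single rats: it was 0 without S4, 15 without S5 and 4 without S6. Col18a1, Col4a5 and Mmp13 were the ones that also passed when the arrays were brought to a common trimmed mean or quantile-normalized, while Col15a1, Mmp3, Fap and Timp3 did not. With signal above the median required on all 6 arrays, 54 genes were tested and Col4a5 alone passed. Col15a1, Col18a1, Mmp3, Mmp13, Fap and Timp3 did not meet that filter and so were not tested there. An unadjusted p under 0.05 in limma was found for 26 of the 69 genes, against 1147 of all 8113 kept probe sets. Of all 6097 genes, 0.853% passed as higher and 1.16% as lower. The lists were chosen with earlier results known, so nothing is read from these comparisons.

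Of 12 stromal markers all passed the filter and 10 were above the table's median on every array. The same held on every array for 8 of 12 leukocyte and macrophage genes, so this measure cannot by itself bear out the stromal label. In limma's test 1 of the 12 rose and none fell, where 0.853% of all 6097 genes passed as higher and 1.16% as lower. Of the 12, 11 did not pass, 5 had a difference below 0, and the median was 0.01. The call was Eng, endoglin or CD105, at 2.27, 1.11 and 1.47 above marrow in S4, S5 and S6 (adjusted p = 0.0384). Nt5e, the surface enzyme CD73, differed by 0.71, 1.09 and 0.52 (adjusted p = 0.0866). Of the 12 markers, 3 were higher and 2 lower in blood in every rat; the genes given here were picked after their values were seen. Thy1, the surface antigen CD90, was at 7.02 and 7.41 in the blood cultures of S4 and S6 and at 9.42 in that of S5, against 9.38, 9.84 and 7.68 in marrow. Lum, the proteoglycan lumican, differed by -3.90 in S4 and -2.09 in S6 and by 0.20 in S5. Pdgfra, a growth factor receptor of fibroblasts, differed by -2.99, -1.10 and -1.70. The part of these markers in the chain differences was not tested.

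Markers of other cells were summed on the linear scale and compared as log2 of the sum, each gene entering by its brightest probe set with no filter. The 12 leukocyte and macrophage genes summed to 13.26 to 13.83 in blood and 12.69 to 13.87 in marrow cultures. On every array 8 of the 12 stood above the table's median, among them Tyrobp, an adaptor of myeloid receptors, at 10.42 to 10.76 in blood and 9.79 to 10.64 in marrow cultures. Of the 8 that passed the filter none passed in limma's test, 1 had an unadjusted p under 0.05, and the median difference was 0.44. Ptprc, the leukocyte antigen CD45, lay below the table's median on every array, with blood levels of 7.77, 7.15 and 7.73 and marrow levels of 6.77, 7.15 and 7.90 in S4, S5 and S6. Of the 12 genes 4, Tyrobp, Cd53, Laptm5 and Ctss, were higher in blood in every rat, and 0 were lower in every rat. In S5 and S6 those differences were 0.05 to 0.57. The sum of the leukocyte and macrophage genes differed by 1.14 in S4 and by 0.02 and -0.04 in S5 and S6, and its part in the result was not tested. The 7 smooth muscle and pericyte genes on the array summed to 11.87 to 12.43 in blood and 11.48 to 11.79 in marrow cultures, a difference of 0.68, 0.08 and 0.77 in S4, S5 and S6. Of these genes 2, Acta2 and Tagln of the contractile apparatus, were higher in blood in every rat and 4, Myh11, Rgs5, Cspg4 and Des, were lower in every rat. None of the 3 tested passed in limma, where 3 had an unadjusted p under 0.05, and their part in the result was not tested. The 7 mesothelial and epithelial genes on the array summed to 9.98 to 10.16 in blood and 10.35 to 10.81 in marrow cultures. Of these 7 genes 2 passed the filter and were tested. Both were called in limma, in opposite directions, where 2.02% of all 6097 genes were called. Msln, mesothelin, fell by 1.24 (adjusted p = 0.00917) and Wt1, a transcription factor of mesothelium, rose by 3.83 (adjusted p = 0.00266). On the marrow arrays this Wt1 probe set stood at 5.07 to 5.37, below the table's median, so it passed the filter through its blood arrays alone. The probe set by which Wt1 entered the sum was another one, at 6.82 to 7.45 and so below the table's median on every array, and Msln was the only gene of the sum above it on all. The part of these genes in the chain differences was not tested. The 6 endothelial genes summed to 9.76 to 9.90 and 9.59 to 9.98. No gene of these lists was listed at 0.

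**Figure D3:**
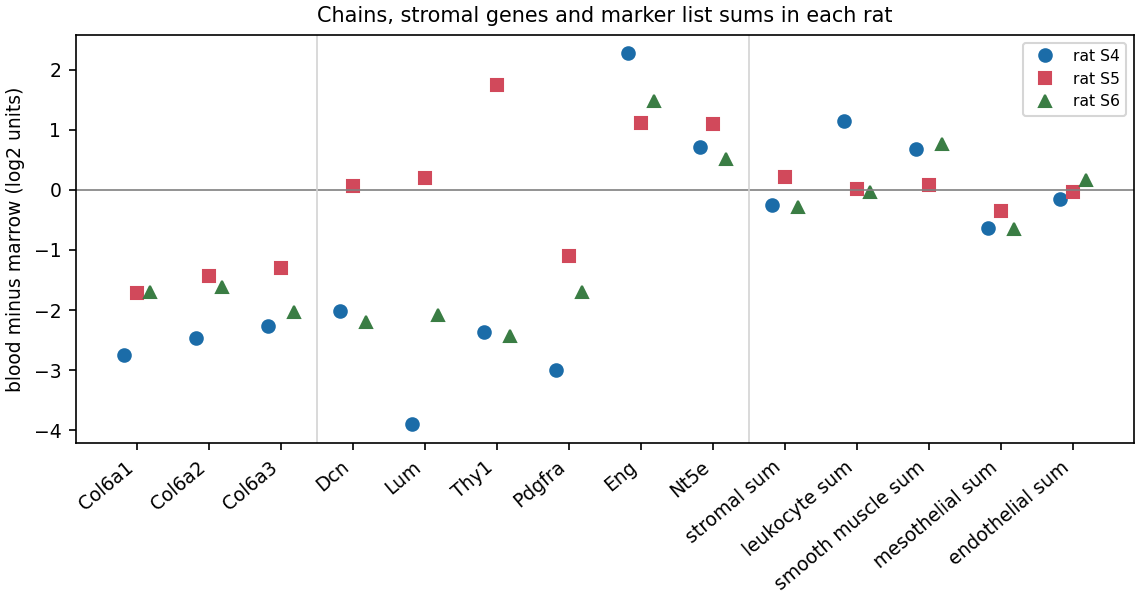
Blood minus marrow difference in log2 units (vertical axis) in each of the 3 rats for the collagen VI chains, 6 stromal genes and the linear sums of 5 marker lists, 1 point per rat. The chains lie at -1.30 or below in every rat, Pdgfra lies below 0 and Eng and Nt5e above 0 in every rat, Dcn, Lum and Thy1 lie above 0 in S5 alone, and the leukocyte sum stands at 1.14 in S4 and at 0.02 and -0.04 in S5 and S6.

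Array medians lay between 8.12 and 8.22, and the excess of 3′ over 5′ signal for beta-actin, which grows as RNA is degraded, was 0.24 to 0.38 on blood and 0.24 to 0.32 on marrow arrays. The same excess for GAPDH was 0.23 to 0.30 on blood and 0.21 to 0.24 on marrow arrays. The trimmed mean signal, the usual scaling target, differed by up to 10.2% between arrays, and setting it equal took the calls over all probe sets from 173 to 105. Per the file headers, all blood arrays were washed on fluidics modules 1 or 3 and all marrow arrays on modules 2 or 4, so module and source cannot be told apart. Station 1 held both arrays of S4 and S5 and station 2 both of S6, so the differences within rats are also differences within stations, and the chains were lower in blood at both.

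The genes whose profiles over the 6 arrays were most like that of the chains were found by the root mean square difference between centred log2 values and the mean centred profile of the chains. On this measure Col6a2 lay 0.13 from the mean of the chains, Col6a1 0.26 and Col6a3 0.35, and the median of all other genes was 1.01. The chains make up that mean and were chosen on the blood and marrow contrast. Their small distances are thus partly fixed in advance, and nothing is read from them. The nearest other gene was Mmp11 at 0.25, which encodes a protease reported to cut the alpha3 chain of collagen VI. It differed by -2.44, -0.92 and -1.98 in S4, S5 and S6. Rgma, a membrane-anchored BMP co-receptor, followed at 0.28 with -1.72, -1.38 and -1.61. Rasa3, a Ras inhibitor, at 0.29, differed by -2.19, -1.88 and -2.02. Mitf, a transcription factor of melanocytes and osteoclasts, also at 0.29, differed by -1.70, -1.32 and -2.01. Masp1, a protease of the complement lectin pathway, and Etfbkmt, a protein methyltransferase, were both at 0.35. These genes were picked for their likeness, so no test is given for them.

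**Figure D4:**
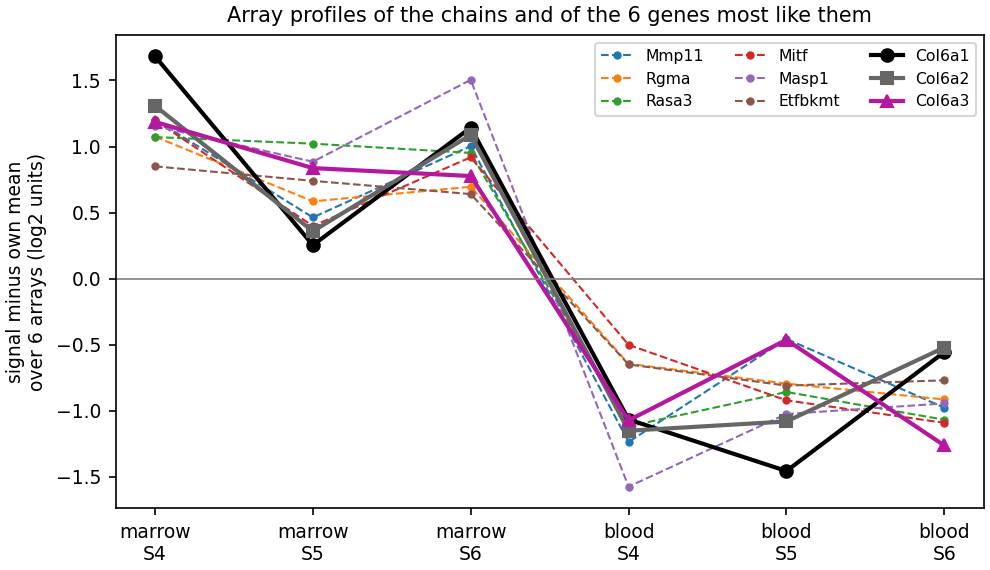
Signal minus the gene's own mean over the 6 arrays in log2 units (vertical axis) for the 3 collagen VI chains (solid lines) and the 6 other genes nearest to their mean profile (dashed lines), by array; lines join separate cultures only to guide the eye. All 9 genes lie above 0 on the marrow arrays and below 0 on the blood arrays. Among the blood cultures S6 is highest for Col6a1 and Col6a2 and lowest for Col6a3.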

How the data were processed

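RNA of 6 cultures was measured on RAE230A arrays. The deposited values run from 0 to 13.31 and were read as log2 signals; neither their base nor how arrays were normalized is given in the sources used here, and the submitters' processing notes name GCOS alone. No further scaling and no pseudocount was applied. After 57 control probe sets and 75 with empty cells were left out, 8113 probe sets above the median of all values, 8.18, on at least 3 of 6 arrays were tested in R 4.3.3 with lmFit and eBayes of limma 3.58.1 (two-sided, Benjamini-Hochberg), with the rat as a term because the series' design text pairs the cultures by animal. After group means were removed, the arrays of S4 correlated at -0.29, those of S5 at 0.30 and those of S6 at 0.33, so the pairing rests on the animals. A gene was represented by its brightest kept probe set, which gave 6097 genes; 12754 of 12789 singly named probe sets matched the RefSeq gene table.

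The members and gene lists were chosen with earlier results of these data known. Named genes were, in each list, those past the threshold, those of smallest unadjusted p up to 3, and Cspg4, Antxr1, Antxr2, Itgb1, Serpinh1, Bgn, Dcn and Fn1; and the 6 genes nearest to the chains' profile. Col4a1, Col4a2, Tgfbi, Lum, Thy1, Pdgfra, the other cell markers given and the chromosomal neighbours were named after their values were seen. The fit was tested on simulated data. Alternatives covered scaling, the filter, the rat term, the choice of probe set and leaving out each rat. Figures and tables used matplotlib 3.10.9, numpy 2.4.6 and pandas 2.3.3 under Python 3.11.15.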

Additional observations from a re-analysis of the deposited data

How the results depend on the processing

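Of 33 alternative values for the differences and the balance of the chains, 30 moved by less than the SD between rats. Leaving out 1 of 3 rats cannot move a mean by that SD, and a common trimmed mean cancels in the balance. Nothing is therefore read from that count. The 3 that moved further all used the dimmer probe set of Col6a2. Its difference was -0.84, Col6a2 relative to Col6a1 became 1.22 and Col6a3 relative to Col6a2 became -1.03. Leaving out 1 rat gave differences of -2.23 to -1.70 for Col6a1, -2.04 to -1.52 for Col6a2 and -2.15 to -1.67 for Col6a3. Col6a3 relative to Col6a2 changed sign, to 0.17, without S6. Over all probe sets limma called 173, against 105 with a common trimmed mean, 107 with quantile normalization, 89 with no filter on signal, 120 with signal above the median on all 6 arrays, and 0 to 404 when 1 rat was left out (0 without S4, where 769 had an unadjusted p under 0.05, 404 without S5 and 44 without S6). The related genes past the threshold numbered 7, against 3 with a common trimmed mean, 3 with quantile normalization and 3 with no filter. With signal above the median on all 6 arrays 1 of 54 tested passed, Col4a5, and the other called genes were not tested. The count was 7 with the brightest probe set chosen before the filter, and 0 to 15 when 1 rat was left out. Without the replicate block, that is with no pairing by rat, limma called 130 probe sets, 106 of them among the 173, and 6 related genes: Col15a1, Fap and Mmp3 no longer passed, and Mmp11 and Mmp16 did. A fit with the fluidics station as a further term was not run, because each rat lies within 1 station. Folds hold only for a base of 2, and signals near the table's median have no known background, which limits the blood levels of all chains.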

Other observations

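Col6a1 and Col6a2 are immediate neighbours on chromosome 20 in the GRCr8 gene table, with 0 protein-coding genes between them, while Col6a3 lies on chromosome 9. Among the 6 protein-coding genes on each side of the Col6a1 and Col6a2 pair, 5 were tested, and 2 passed in limma, both lower in blood cultures. Of all 6097 genes, 1.16% passed as lower. Col18a1, the third gene before Col6a1, was described above. Lss, the third gene after Col6a2 and the lanosterol synthase of cholesterol synthesis, stood at 11.15 ± 0.28 in marrow and 10.23 ± 0.30 in blood cultures (SD, n = 3) and differed by -0.78, -1.04 and -0.96 in S4, S5 and S6 (adjusted p = 0.0286). The other neighbours tested did not pass: Pofut2 and Mcm3ap both differed by -0.21, and Adarb1 by -1.07, 0.92 and 0.81. Around Col6a3, 4 of 12 neighbours were tested and none passed in limma or had an unadjusted p under 0.05, with a median of 0.03. As for all genes, no neighbour passed without S4, and Lss also did not pass without S6 (adjusted p = 0.222), without the rat term (0.103) or with no filter (0.0943). The width of 6 genes was chosen after earlier results for Col18a1 and Lss were known, so the count is a description.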
